A study of Mus musculus with 10 samples.

Results

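The mitochondrial ribosomal protein genes are the nuclear genes for the proteins of the ribosome inside mitochondria. They were taken here as the protein-coding genes whose mouse symbol starts with Mrpl or Mrps followed by a digit and whose mean over the 10 libraries was at least 1 FPKM (fragments scaled by transcript length and library size). This gave 76 genes of the 78 with such a symbol, among 15905 genes with that mean and 47632 rows in the table. RNA was sequenced from the striatum of R6/2 hemizygous mice and of isogenic wild-type mice as controls, all harvested at 11 weeks, with 5 libraries in each group. R6/2 mice carry a transgene with the first exon of the human huntingtin gene, an expanded CAG repeat and the human promoter, and are used as a fast model of Huntington's disease, and the controls lack it. The labels state neither the repeat length, the strain nor the sex, and whether every library is a separate animal is unstated. The p-values therefore measure the spread between these libraries, which may be partly technical.

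Mitochondria keep their own ribosome, which translates the few messenger RNAs of the mitochondrial genome, all of them for subunits of the respiratory chain and the ATP synthase. The RNA of this ribosome comes from the mitochondrial genome, whereas each of its proteins is encoded in the nucleus, made in the cytosol and imported. Some of these proteins have a counterpart in bacterial ribosomes and others exist only in mitochondria. Neurons of the striatum depend on respiration, and impaired respiratory chain function is a known feature of Huntington's disease.

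Low values of the table showed how the libraries compared in depth. Among genes under 0.1 FPKM in both libraries, 33.2 to 47.2% had one common ratio to control 1 within 1%. In 64.0 to 73.9% it was that ratio, or that ratio times a ratio of small whole numbers. Read as steps of whole fragments, these ratios put the depth of the libraries between 0.686 (R6/2 2) and 1.38 (R6/2 1) times that of control 1, with overlapping groups. The number of fragments per gene was not recovered, since the sources used here do not give the transcript lengths behind the values, and no counting interval is given. The label striatum was checked with markers of spiny projection neurons, its main cell type. Their 10 genes summed to between 1702 and 2135 FPKM in controls, and all 10 were lower in R6/2 (limma), with sums of 182 to 305 FPKM. In bulk tissue, fewer cells of a type and less RNA per cell cannot be told apart.

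Few of these genes differed between R6/2 and control striatum beyond the spread of the libraries. Of the 76 genes, 3 rose and 0 fell in R6/2 at a Benjamini-Hochberg adjusted p under 0.05 in limma, a linear model with moderated variances, fitted on log2(FPKM + 1) over all 15905 genes. The 3 were Mrpl20, Mrps22 and Mrpl39. Over all genes tested, 5.00% (795 genes) were called higher and 9.11% (1449 genes) lower, so the share of members called higher, 3.95%, was near the background. Rescaling the libraries to 1 protein-coding total gave 1522 genes higher and 1136 lower, and quantile normalization gave 1111 and 1277. At an unadjusted p under 0.05, 6 members were higher and 2 lower, against 16 and 0 after that rescaling and 10 and 0 after quantile normalization. Over all genes tested without rescaling, 4367 (27.5%) had an unadjusted p under 0.05 in limma, in either direction. The share of the members was below that background. For the rescaled or quantile-normalized values the share over all genes is not given. Both moved all genes upward, to median log2 changes of 0.093 and 0.048, against 0.001 as deposited. The member counts under these 2 scalings are therefore not read as a result about the members. In the same 3 genes all 5 R6/2 values lay above all 5 control values, and no member had all of its R6/2 values below the controls. Over all genes tested the groups did not overlap in 4.50% with R6/2 higher and in 8.58% with R6/2 lower.

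The changes of the other genes were small and leaned upward. The log2 change was above 0 in 52 of the 76 genes and below 0 in 24, against 7980 above 0 among the 15905 genes tested. Its median was 0.11, against 0.001 over all genes tested, and it lay within 0.3 of 0 in 58 of the 76. The added 1 FPKM makes the changes of low genes look smaller than they are.

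**Figure D1:**
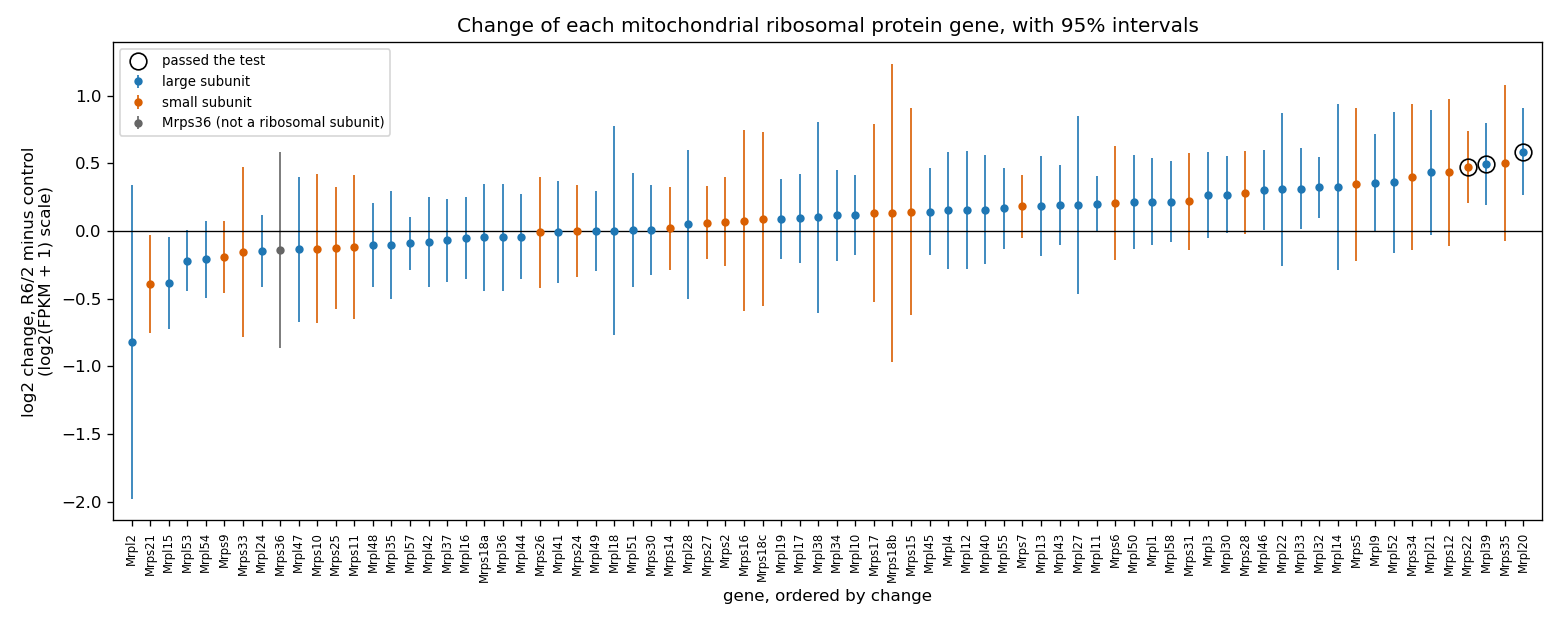
Log2 change from control to R6/2 of the 76 genes, ordered by size, with 95% intervals from limma (n = 5 libraries a group, not adjusted for the number of genes). Colours give the subunit, and rings mark the 3 genes that passed the test at the right end. Most points lie within 0.3 of 0.

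**Figure D2:**
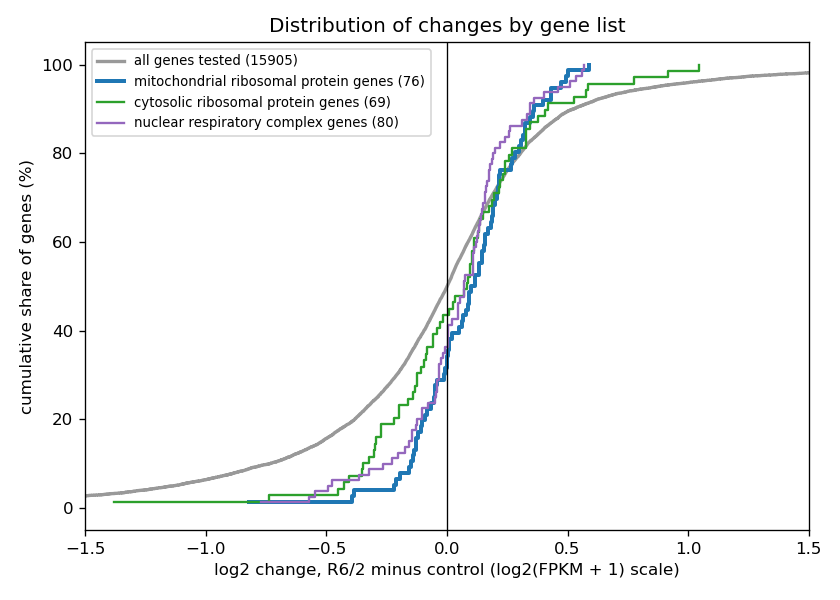
Cumulative share of genes (vertical axis, percent) by log2 change (horizontal axis, limited to 1.5 either way) for the 76 genes, all 15905 genes tested, 69 cytosolic ribosomal protein genes and 80 nuclear genes of the respiratory complexes. The 76 genes reach neither the steep falls nor the steep rises of all genes tested, and their curve crosses 50% at 0.11.

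Mrpl20 encodes a protein of the large subunit with a bacterial counterpart that binds ribosomal RNA early in assembly. The gene (ENSMUSG00000029066.12) lies on the forward strand of chromosome 4, 155802878 to 155809975, in GRCm38. It was at 9.42, 7.50, 10.7, 9.26 and 8.46 FPKM in controls 1 to 5 and at 11.8, 15.6, 11.2, 14.2 and 18.7 FPKM in R6/2 1 to 5. Every R6/2 value was above the highest control value, 10.7 FPKM, the closest being R6/2 3. The means were 9.07 ± 1.19 and 14.3 ± 3.05 FPKM (SD, n = 5), a ratio of 1.57. The log2 change was 0.59 (SE 0.144, limma adjusted p = 0.0232).

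Mrps22 encodes a protein of the small subunit found only in mitochondria, and mutations of its human counterpart cause a severe deficiency of several respiratory complexes. The gene (ENSMUSG00000032459.9) lies on the reverse strand of chromosome 9, 98588730 to 98601660, in GRCm38. It was at 8.57, 6.51, 9.37, 7.08 and 8.02 FPKM in the controls and at 10.1, 11.1, 9.86, 11.7 and 14.0 FPKM in R6/2. The groups did not overlap, and R6/2 5 stood highest. The means were 7.91 ± 1.14 and 11.4 ± 1.67 FPKM (SD, n = 5), with a log2 change of 0.47 (SE 0.119, limma adjusted p = 0.0267).

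Mrpl39, also without a bacterial counterpart, encodes a large subunit protein near the mouth of the tunnel through which the new protein leaves. The gene (ENSMUSG00000022889.7) lies on the reverse strand of chromosome 16, 84717576 to 84735742, in GRCm38. It was at 8.90, 5.71, 8.84, 5.68 and 8.27 FPKM in the controls and at 10.7, 11.8, 9.80, 10.3 and 11.2 FPKM in R6/2. Controls 2 and 4 were the lowest, and the R6/2 values lay close together above the controls. The means were 7.48 ± 1.65 and 10.8 ± 0.776 FPKM (SD, n = 5), with a log2 change of 0.49 (SE 0.135, limma adjusted p = 0.0376).

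The 3 calls lay close to the threshold and were lost when single libraries were left out. Leaving out control 2, R6/2 2 or R6/2 4 gave Mrpl20 an adjusted p of 0.055, 0.0577 or 0.0502 in limma. It was 0.0574, 0.0621, 0.0531 and 0.058 without control 2, control 4, R6/2 2 and R6/2 4 for Mrps22. For Mrpl39 it was 0.0741 without control 2, 0.0729 without control 4 and, without R6/2 1 to 5 in turn, 0.073, 0.086, 0.0564, 0.0657 and 0.0759. The log2 changes stayed between 0.398 and 0.664 in all of these fits.

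**Figure D3:**
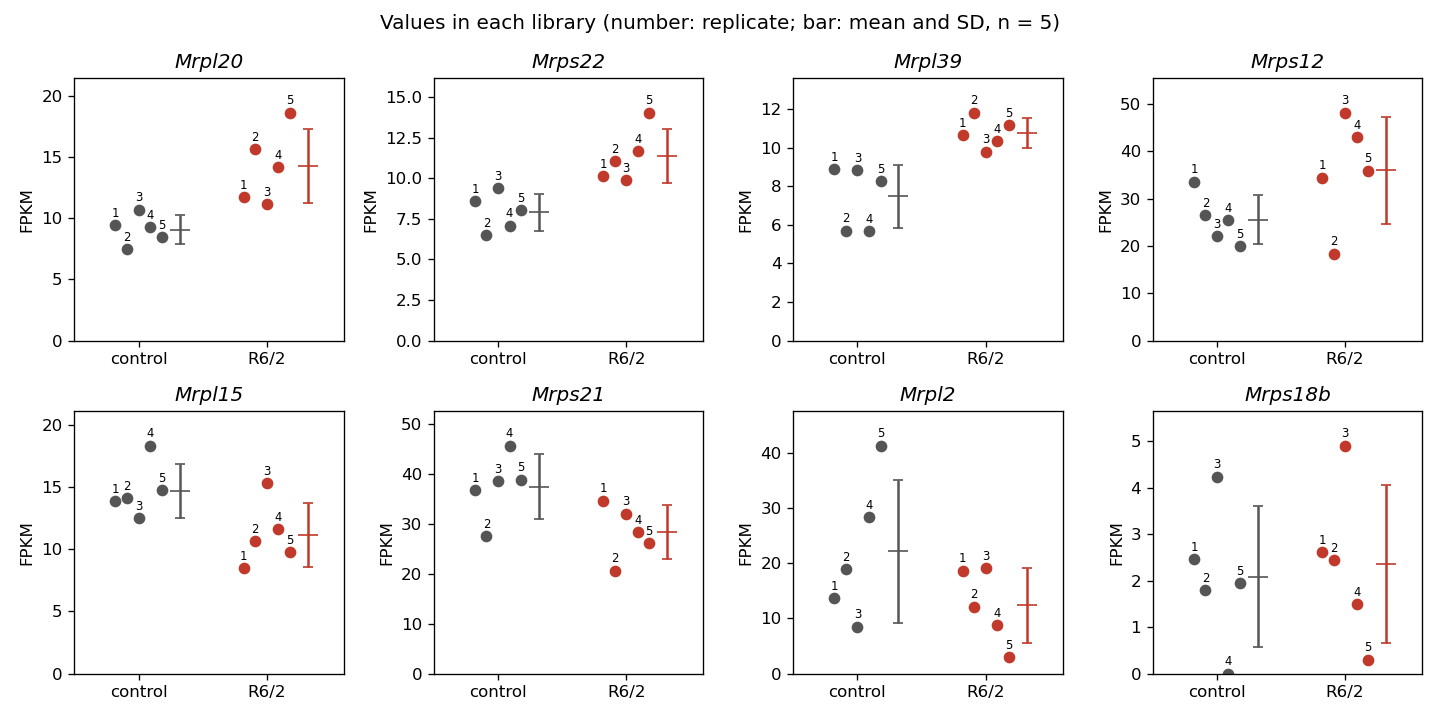
FPKM in each of the 5 control and 5 R6/2 libraries (points, numbered by replicate) with mean and SD for 8 genes, each axis starting at 0. The groups are apart in Mrpl20, Mrps22 and Mrpl39 and overlap in the other 5 genes, and Mrpl2 and Mrps18b show the widest scatter.

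The promoters of 2 of these genes are shown, since they belong to genes that rose. Sequences and start sites are from RefSeq for GRCm38.p6, where 67 of the 76 members matched an entry by symbol. The 250 bases before each start were searched on both strands for a motif of the nuclear respiratory factor NRF1 (GCGC and TGCGC with 1 base of any kind between them), the core of the ETS family that NRF2 belongs to (CCGGAAG), a YY1 motif (AAGATGGCG) and CCAAT, none of which contains another. NRF1 and NRF2 are textbook regulators of nuclear genes for mitochondria. Capitals mark matches. The stretch of Mrpl20 (chr4:155802628-155802877, forward strand) holds none of the 4 motifs. That of Mrps22 (chr9:98601680-98601929, reverse strand) holds CCGGAAG once, near its end.
Mrpl20: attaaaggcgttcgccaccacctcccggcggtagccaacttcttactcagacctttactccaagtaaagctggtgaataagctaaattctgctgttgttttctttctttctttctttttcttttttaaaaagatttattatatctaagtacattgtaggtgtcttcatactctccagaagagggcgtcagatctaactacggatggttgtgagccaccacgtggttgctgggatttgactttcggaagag
Mrps22: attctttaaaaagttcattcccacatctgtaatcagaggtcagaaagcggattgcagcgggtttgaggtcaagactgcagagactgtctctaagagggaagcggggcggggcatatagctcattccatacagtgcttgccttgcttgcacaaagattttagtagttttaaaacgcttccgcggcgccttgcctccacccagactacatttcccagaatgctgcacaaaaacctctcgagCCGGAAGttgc

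The NRF1 motif was found before 10 of the 67 members, 14.9%, against 5.54% of 16387 protein-coding genes with an entry. Those 16387 genes, also used for the other motifs below, were taken at any level, whereas every member averaged at least 1 FPKM. The shares therefore compare unlike sets, and their difference was not tested. These matches are printed, 30 bases each on the strand of the gene, to show the letters that were matched and those beside them. Capitals mark the motif as it reads on that strand. Mrpl45 holds it 2 times, and the match nearer the start is printed.
Mrpl12 (chr11:120484546-120484575, forward strand): tattgtctccGCGCCTGCGCgtcgcaccgc
Mrpl17 (chr7:105811117-105811146, reverse strand): aggctctgatGCGCACGCGCaaacgcggta
Mrpl30 (chr1:37890384-37890413, forward strand): tgacgccgctGCGCCTGCGCtgtcttctat
Mrpl32 (chr13:14613105-14613134, reverse strand): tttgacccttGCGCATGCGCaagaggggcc
Mrpl39 (chr16:84735350-84735379, reverse strand): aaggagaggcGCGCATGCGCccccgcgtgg
Mrpl44 (chr1:79775973-79776002, forward strand): agaagcacttGCGCACGCGCagtacactag
Mrpl45 (chr11:97315668-97315697, forward strand): tggtttcattGCGCACGCGCgaacccactg
Mrpl57 (chr14:57826172-57826201, forward strand): tttgaatcctGCGCAGGCGCagaaggcgtc
Mrpl9 (chr3:94443298-94443327, forward strand): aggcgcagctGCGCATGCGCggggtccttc
Mrps21 (chr3:95871586-95871615, reverse strand): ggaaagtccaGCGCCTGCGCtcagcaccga
The match nearest its start site begins 28 bases before it (Mrpl9) and the farthest 125 bases (Mrpl39). The RefSeq starts of Mrpl39 and Mrpl32 lay 498 and 128 bases inside the 5′ end of the gene in GENCODE M21. Their matches thus fall within the annotated spans of these genes. These 10 genes, chosen by sequence, had log2 changes from -0.39 to 0.49 with a median of 0.15, against 0.077 in the 57 without a match. The ETS core was before 16 of the 67 members, 23.9%, against 9.57% of all, and CCAAT before 25, 37.3% against 36.0%. The YY1 motif was before 2 members, 2.99% against 0.72%. The median log2 change of members with and without the motif was 0.10 and 0.077 for ETS, 0.0027 and 0.14 for CCAAT, and -0.084 and 0.11 for YY1, and these differences were not tested. A match of letters is no evidence of binding, and 18 of the RefSeq starts lay more than 100 bases from the 5′ end of the gene in GENCODE M21.

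Among the larger rises that did not pass were genes of both subunits. Mrps35, a mitochondria-specific protein of the small subunit, was at 21.8, 18.7, 8.80, 13.3 and 12.9 FPKM in controls and 14.8, 31.1, 24.0, 21.2 and 16.6 FPKM in R6/2. R6/2 2 was highest and control 3 lowest, with the rest of both groups intermixed (log2 change 0.50, 95% interval -0.076 to 1.08, limma adjusted p = 0.251). Mrps12, which sits at the decoding centre and guards the accuracy of translation, was at 33.6, 26.5, 22.1, 25.5 and 19.96 FPKM in controls and 34.5, 18.3, 48.2, 43.0 and 35.9 FPKM in R6/2. Of its R6/2 values 4 were above every control and R6/2 2 was below them all (log2 change 0.43, limma adjusted p = 0.29). With R6/2 2 left out, Mrps12 passed at a change of 0.65 (limma adjusted p = 0.0344). Mrpl21, a large subunit protein with a bacterial counterpart, ran from 6.64 to 15.1 FPKM in controls and from 9.79 to 17.1 FPKM in R6/2. The log2 change was 0.43 (limma adjusted p = 0.213), and Ighmbp2 on the other strand shares exon sequence with it. Mrps34, a small subunit protein without a bacterial counterpart, differed by 0.40 in log2 with an adjusted p of 0.329 in limma, and its exons overlap those of Nme3 and Mapk8ip3. Mrpl52, a mitochondria-specific protein of the large subunit, ran from 19.6 to 47.4 FPKM in controls and from 25.5 to 43.8 FPKM in R6/2, so the R6/2 values lay within the control range (log2 change 0.36, limma adjusted p = 0.364).

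Negative changes were fewer, and none passed. Mrpl2, whose protein lies in the catalytic core of the large subunit, had the largest negative change. It was at 13.7, 19.0, 8.52, 28.4 and 41.3 FPKM in controls and 18.7, 12.1, 19.1, 8.81 and 2.99 FPKM in R6/2, so both groups spread widely and overlapped (log2 change -0.82, 95% interval -1.98 to 0.34, limma adjusted p = 0.351). The change of Mrpl2 lay between -1.09 and -0.44 when single libraries were left out, the last without R6/2 5. Mrps21, a small subunit protein with a bacterial counterpart, was at 36.8, 27.5, 38.5, 45.7 and 38.8 FPKM in controls and 34.6, 20.6, 32.01, 28.4 and 26.1 FPKM in R6/2 (log2 change -0.39, limma adjusted p = 0.146). Control 2 lay within the R6/2 range and the other controls above it. Mrpl15, of the large subunit and with a bacterial counterpart, was at 13.9, 14.1, 12.5, 18.3 and 14.7 FPKM in controls and 8.49, 10.6, 15.3, 11.6 and 9.76 FPKM in R6/2 (log2 change -0.38, limma adjusted p = 0.128). Of the R6/2 libraries only R6/2 3 reached the control values of Mrpl15, and without it Mrpl15 passed as lower (log2 change -0.50, limma adjusted p = 0.0341). The other negative changes among the 8 largest were -0.22 for Mrpl53, -0.21 for Mrpl54, -0.19 for Mrps9, -0.16 for Mrps33 and -0.15 for Mrpl24, with adjusted p from 0.194 to 0.769 in limma. Mrps33 ran from 4.61 to 13.7 FPKM among the controls alone.

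**Figure D4:**
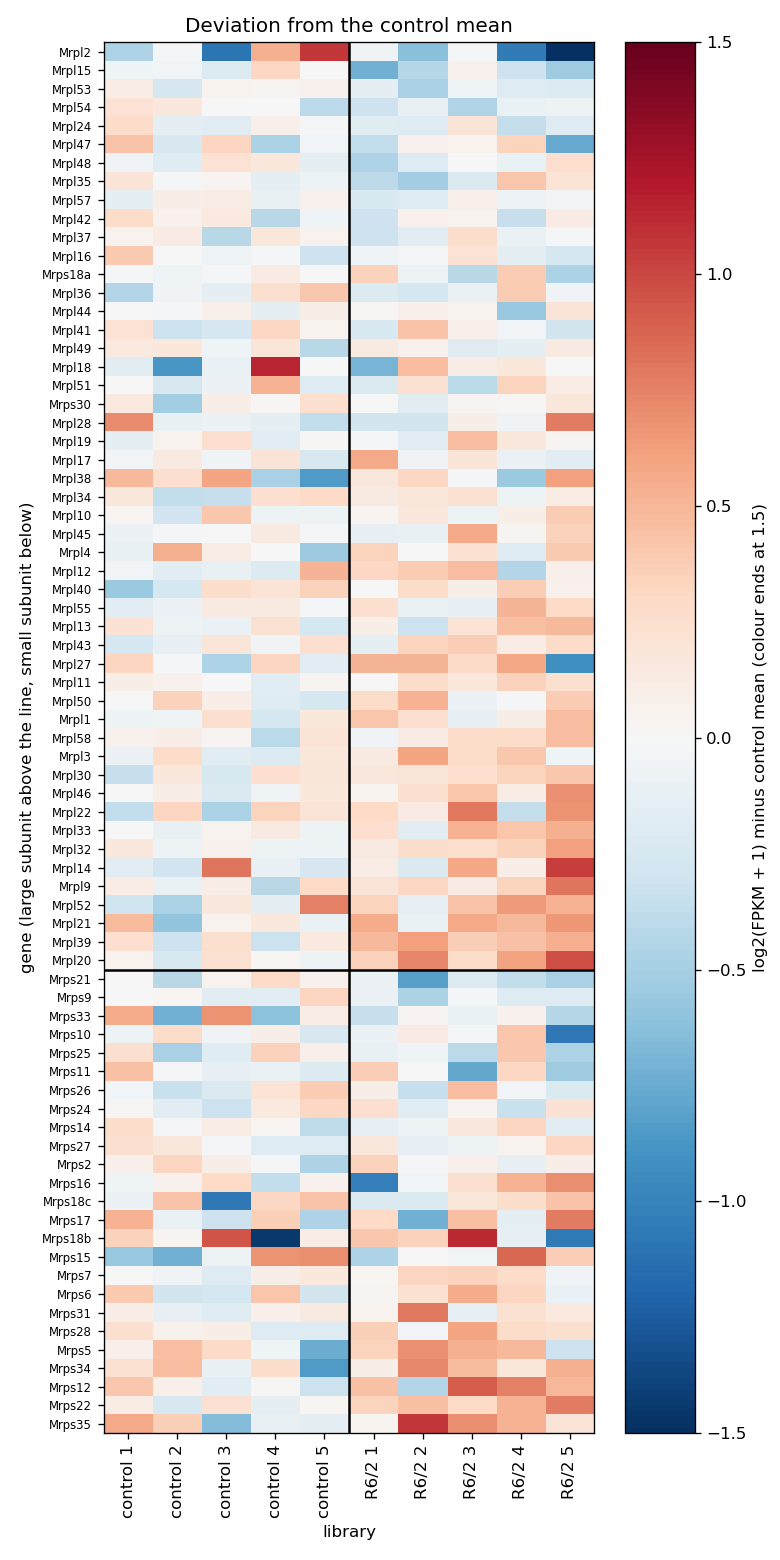
Deviation of each gene from its control mean (colour, log2(FPKM + 1) units, ending at 1.5 either way) in the 10 libraries (columns), for the 50 large subunit genes above the line and the 25 small subunit genes below it, ordered by change. R6/2 3, 4 and 5 show more red than the controls, and single dark cells such as Mrpl18 in control 4 belong to 1 library.

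The 3 calls fell in both subunits and in proteins of both origins. Of 50 large subunit genes 2 rose, with a median log2 change of 0.12, and of 25 small subunit genes 1 rose, with a median of 0.087. The origin follows the current naming of ribosomal proteins, which puts Mrps18a and Mrps18b among the mitochondria-specific proteins although they are relatives of a bacterial one. Of 45 genes with a bacterial counterpart by that naming 1 rose (median 0.13), and of 30 mitochondria-specific genes 2 rose (median 0.035). Mrps36 is left out of these counts, since its protein is known as a subunit of the ketoglutarate dehydrogenase complex and is absent from structures of the ribosome. The difference between these groups of genes was not tested.

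Of the called genes, Mrpl39 alone was assigned here to a functional site of the ribosome, so no site could hold more than 1. The lists of genes per site may be incomplete. The stalk recruits translation factors to the ribosome, and its genes Mrpl10, Mrpl11 and Mrpl12 had log2 changes of 0.12, 0.20 and 0.16. In the catalytic core, Mrpl3, Mrpl4 and Mrpl16 had changes of 0.27, 0.15 and -0.055 beside the -0.82 of Mrpl2. After rescaling to 1 protein-coding total Mrpl16 was at 0.056 and Mrpl44, at the exit tunnel, at 0.053. Around the exit tunnel, where Mrpl39 rose, the other changes were 0.093 for Mrpl17, 0.31 for Mrpl22, -0.15 for Mrpl24, -0.043 for Mrpl44, 0.14 for Mrpl45 and -0.14 for Mrpl47. Mrpl45 anchors the ribosome to the inner membrane. None of these 6 passed. The central protuberance joins the subunits at the top of the particle. The genes assigned to it here, Mrpl18, Mrpl27, Mrpl38, Mrpl40, Mrpl46 and Mrpl48, had changes from -0.11 (Mrpl48) to 0.30 (Mrpl46), with a median of 0.13. Along the path of the messenger RNA, Mrps2, Mrps5 and Mrps24 had changes of 0.068, 0.34 and 0.00053. None of the genes assigned here to the stalk, core, protuberance or messenger path passed, with limma adjusted p from 0.174 to 0.999.

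Levels differed widely between the genes. Per length, the highest was Mrpl30 at a mean of 51.5 FPKM over the 10 libraries, followed by Mrpl33 at 37.3 and Mrps21 at 32.9 FPKM. Mrpl52 and Mrps12 came next at 32.8 and 30.7 FPKM, and these last 3 overlapped in their values over the libraries. Of the 76 genes 67 lay between 3 and 20 FPKM, and the median was 8.98 FPKM. Mrpl30 was at 36.2, 51.7, 38.9, 55.4 and 52.6 FPKM in controls and 52.4, 52.5, 55.4, 58.6 and 61.4 FPKM in R6/2, with controls 1 and 3 standing lowest (log2 change 0.27, limma adjusted p = 0.21). Mrpl33 was at 32.9, 30.2, 34.1, 36.1 and 31.0 FPKM in controls and 39.1, 29.2, 47.7, 44.2 and 48.0 FPKM in R6/2 (log2 change 0.31, limma adjusted p = 0.158). Its R6/2 2 value lay below every control and the other 4 above them, and without R6/2 2 the change was 0.43 and passed (limma adjusted p = 0.0127). The exons of Mrpl33 overlap a transcript named Gm43809 on the same strand.

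At the low end, Mrps36 and Mrps18b were just inside the limit of 1 FPKM, with means of 1.59 and 2.22 FPKM. Mrpl23 and Mrps23 were outside it, with means of 0.21 and 0.032 FPKM. Mrps23 was listed at 0 in 9 libraries and Mrpl23 in 4. Both encode ordinary subunits of the ribosome, and an exact 0 in such a table can be a failed estimate. Mrps36 was at 0.441, 2.72, 2.05, 0.552 and 3.39 FPKM in controls and 1.09, 1.401, 1.31, 1.81 and 1.10 FPKM in R6/2, so its control values spread more than its R6/2 values (log2 change -0.14, limma adjusted p = 0.825). Mrpl51, the next lowest after Mrps18b, had means of 3.01 ± 0.937 and 3.02 ± 0.829 FPKM (SD, n = 5, log2 change 0.0083).

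Mrps18a, Mrps18b and Mrps18c are paralogues related to the same bacterial protein, and Mrps18a is built into the large subunit and the others into the small one. By the current naming of ribosomal proteins Mrps18c alone is its counterpart, and the others are counted here as mitochondria-specific. Mrps18c was the most abundant, at 19.5, 28.3, 9.32, 26.0 and 28.1 FPKM in controls and 17.8, 17.7, 23.5, 25.1 and 28.4 FPKM in R6/2. Mrps18a was at 7.55, 7.35, 7.58, 8.47 and 7.66 FPKM in controls and 10.1, 7.25, 5.52, 10.4 and 5.28 FPKM in R6/2, with controls close together and R6/2 spread to both sides of them. Mrps18b was at 2.46, 1.79, 4.23, 0 and 1.95 FPKM in controls and 2.61, 2.44, 4.90, 1.49 and 0.2996 FPKM in R6/2, the lowest of the paralogues in every library. It was the only member listed at 0 in a library, control 4. After rescaling to 1 protein-coding total the change of Mrps18a was 0.055. As deposited, the log2 changes were -0.048, 0.13 and 0.087 for Mrps18a, Mrps18b and Mrps18c, with limma adjusted p from 0.888 to 0.902. Mrps30, named as a small subunit gene but built into the large subunit, was at 3.09 ± 0.770 FPKM in controls and 3.06 ± 0.337 FPKM in R6/2 (SD, n = 5, log2 change 0.0090).

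How firmly a change can be read differed between members. The standard deviation within groups had a median of 0.26 on the log2(FPKM + 1) scale, against 0.28 over all genes tested and 0.24 over protein-coding genes. In 38 members the highest library was under 2 times the lowest, and in 4, Mrps18b among them, it was over 5 times the lowest. On the log2(FPKM + 1) scale, the 95% interval of the change lay wholly within a 1.5-fold change either way in 41 of the 76 members. These were 32 of 50 of the large and 9 of 25 of the small subunit. The bound thus applies to FPKM + 1, and in low genes it allows a larger fold change in FPKM. In the remaining members the interval did not exclude a 1.5-fold change.

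The summed level of the 76 genes was 834, 768, 767, 859.8 and 845 FPKM in controls 1 to 5 and 827, 809.5, 930.1, 903 and 896 FPKM in R6/2 1 to 5. R6/2 3, 4 and 5 were above every control, and R6/2 1 and 2 lay among them. The means were 815 ± 44.3 and 873 ± 52.1 FPKM (SD, n = 5). The ratio of large to small subunit sums was 1.95 ± 0.134 in controls and 1.97 ± 0.122 in R6/2 (SD, n = 5), a difference smaller than the spread between libraries.

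The same sums depend on what they are set against. Nuclear protein-coding genes together held 211209 to 219426 FPKM in the controls but 193203 to 202906 FPKM in the R6/2 libraries. As a share of that total, the 76 genes held 0.381, 0.363, 0.357, 0.407 and 0.385% in controls and 0.428, 0.399, 0.463, 0.459 and 0.450% in R6/2. On this scale R6/2 2 alone reached down into the control range, below control 4. With libraries rescaled to 1 common total, the median log2 change of the members was 0.20 and that of all genes tested 0.093, so the members stood 0.11 above it, as they did without rescaling. Then 4 of the 76 members were called higher, Mrpl32 joining the 3, beside 1522 of all 15905 genes tested. The share of the members was thus below that of all genes. Mrpl32, chosen here after its values were seen, encodes a large subunit protein whose maturation needs a mitochondrial protease.

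**Figure D5:**
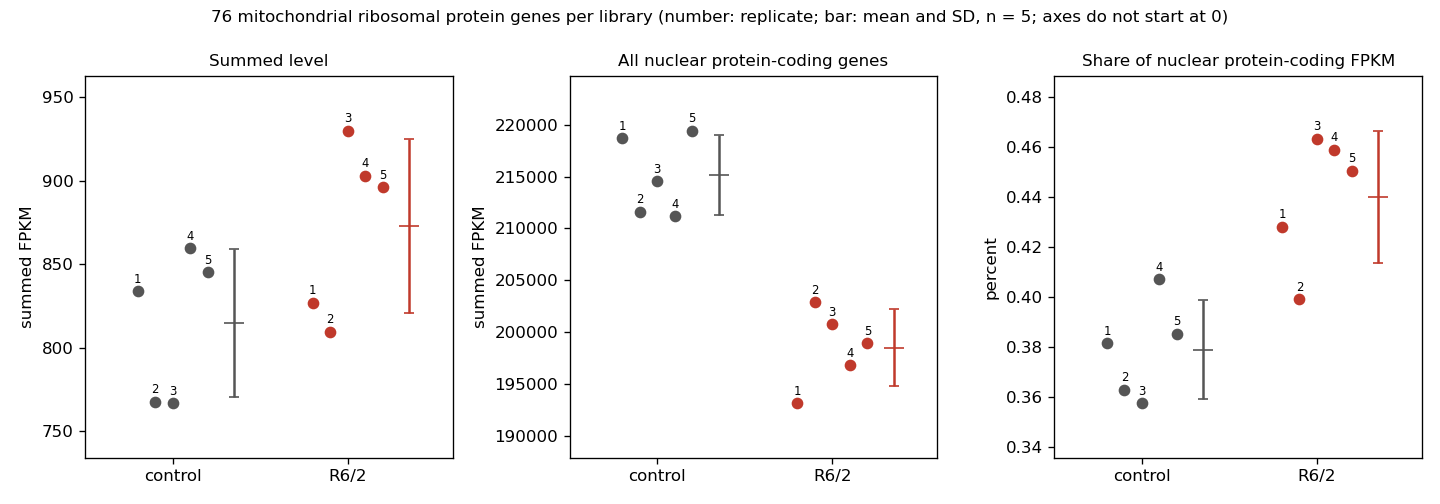
Summed FPKM of the 76 genes (left), total FPKM of all nuclear protein-coding genes (middle) and the first as a percentage of the second (right), for each of 5 control and 5 R6/2 libraries (points, numbered by replicate) with mean and SD. The axes do not start at 0. The sums overlap between groups, and the totals on which the shares rest are lower in every R6/2 library.

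Annotation bears on some of these values. Exons of 33 of the 76 members overlap an exon of another gene in GENCODE M21, in 23 of them a protein-coding gene, and the sources used here do not give the strand setting of the counting. Mrpl46 and Mrps11 overlap each other on opposite strands. None of the 33 was called, and their median log2 change was 0.091, against 0.11 and 3 called among the 43 without an overlap. Members lie on 17 chromosomes. Their longest annotated transcripts are short, with a median of 1866 bases against 3592 over protein-coding genes tested. Among nuclear protein-coding genes with a longest transcript of up to 1000 bases, from 1000 to 2000, from 2000 to 4000 and above 4000 bases, the median log2 change was 0.070, 0.051, 0.025 and -0.020. Among members of the same classes it was 0.11 (17 genes), 0.13 (23), 0.077 (25) and 0.091 (11). The part of transcript length in the lean of the members was not tested.

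The other genes of mitochondrial translation also showed few changes. Of 5 ribosomal proteins with other names (Dap3, Ptcd3, Chchd1, Aurkaip1 and Gadd45gip1) none passed, and the median was -0.084. Of 26 tested genes for assembly of the ribosome and maturation of its RNA 2 rose and 0 fell (median 0.13). Ngrn, needed for the large ribosomal RNA, rose from 8.27 ± 1.52 to 13.3 ± 2.07 FPKM (mean ± SD of 5 libraries). Its log2 change was 0.63, at a limma adjusted p of 0.0138. Rbfa, which matures the RNA of the small subunit, rose from 2.46 ± 0.362 to 3.55 ± 0.296 FPKM (log2 change 0.40, limma adjusted p = 0.0276, and 0.061 without R6/2 1 and 0.0564 without R6/2 3). Of 17 translation factors 1 rose (median 0.085). It was Guf1, a GTPase that moves the ribosome backwards, from 8.07 ± 1.12 to 16.1 ± 3.56 FPKM (mean ± SD of 5 libraries), a log2 change of 0.90 at a limma adjusted p of 0.00294. Guf1 and Ngrn kept their calls whichever library was left out (limma adjusted p up to 0.0113 and 0.037).

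Aminoacyl-tRNA synthetases of mitochondria charge the transfer RNAs, and none of 19 passed (median 0.074). Of 10 tested genes for transcription and replication of mitochondrial DNA 1 rose and 1 fell (median 0.018). Ssbp1, which coats single-stranded mitochondrial DNA, rose from 12.6 ± 1.47 to 17.5 ± 2.41 FPKM (mean ± SD of 5 libraries), a log2 change of 0.44 at a limma adjusted p of 0.0264. Tefm, an elongation factor of mitochondrial transcription, fell from 5.44 ± 0.767 to 3.95 ± 0.486 FPKM (log2 change -0.38, limma adjusted p = 0.0453). Both calls were lost in some fits with 1 library left out, with limma adjusted p up to 0.0587 for Ssbp1 (without control 2 or 3 or R6/2 4 or 5) and 0.106 for Tefm (without any library but control 5).

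The RNA of the mitochondrial ribosome could not be set beside its proteins. Both ribosomal RNA genes, mt-Rnr1 and mt-Rnr2, were listed at 0 in all 10 libraries, as were 5 of the 13 protein-coding genes of the mitochondrial genome. Of the 8 protein-coding genes with values none passed, and their median log2 change was -0.22. Summed, they ran from 87083 to 161164 FPKM in controls and from 75662 to 111650 FPKM in R6/2, and control 5 stood highest.

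Cytosolic ribosomal protein genes, which serve the other ribosome of the cell, had 5 of 69 tested higher and 0 lower (median 0.082). They were 84 by symbol, and the rest, Rps6 and Rpsa among them, were under 1 FPKM and not tested. The choice by symbol also takes in like-named genes such as Rpl7l1, which was among the 5. Nuclear genes of the respiratory complexes, whose partners from the mitochondrial genome are made by the mitochondrial ribosome, had 4 of 80 higher and 2 lower (median 0.072). The difference between these lists and the 76 genes was not tested.

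Markers of several cell types moved with the groups. Cortical neuron markers, 4 genes, together reached 21.5 to 47.0 FPKM in controls against 48.3 to 83.9 FPKM in R6/2. Of 8 myelin markers 5 fell (sums of 1557 to 1764 against 722 to 1099 FPKM), and of 8 astrocyte markers 3 fell (854 to 1066 against 643 to 758 FPKM). Of 7 microglia markers 1 fell (54.2 to 68.0 against 47.6 to 52.6 FPKM), and of 5 blood markers 2 fell (24.7 to 41.9 against 10.2 to 20.7 FPKM). None of 7 endothelial and mural markers passed (76.3 to 99.3 against 71.3 to 85.0 FPKM), and none of 4 choroid plexus markers (13.7 to 541 against 26.8 to 459 FPKM). None of the tested markers is at 0 in all libraries of a group. With the mean cortical signal as a covariate the log2 changes were 0.82 for Mrpl20 (limma adjusted p = 0.058), 0.72 for Mrps22 (0.0262) and 0.75 for Mrpl39 (0.0484), and the median of the members was 0.10. That signal ran from -0.94 to -0.021 in controls and from 0.092 to 0.84 in R6/2, without overlap. This fit therefore cannot tell cortical content from genotype, and its changes are not changes with cortical content removed. The part of the other markers in these results was not tested.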

How the data were processed

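The members and the gene lists were chosen with earlier results of these data known. Striatal RNA was amplified (NuGEN Ovation RNA-Seq v2) and made into Nextera libraries, per the labels' protocols. The authors deposited FPKM values, 1 column per library, and 0 columns were without a sample. STAR 2.4.0, Cufflinks, Cuffdiff and GRCm38 are named in the submitters' processing notes, without their roles. The sources used here do not give the annotation release, the strand setting or the scaling. Symbols, biotypes and positions came from GENCODE M21 (GRCm38) by Ensembl ID (47220 of 47632 IDs matched). Genes averaging at least 1 FPKM were fitted with limma 3.58.1 in R 4.3.3 on log2(FPKM + 1), with a mean-variance trend, R6/2 minus control, two-sided, with 8 residual degrees of freedom. The code was also run on simulated data with independent normal noise, which says nothing on how well the model holds for these libraries. Intervals are at 95% and unadjusted. FPKM are not counts, so no count model was used, and relative depth came from ratios of low values. Named genes are the called members, the 8 largest changes each way, the 3 highest and 3 lowest levels, those nearest the limit of 1 FPKM, Mrps18a, Mrps18b, Mrps18c, Mrps30, Mrps36, Mrps12 and Mrpl12, and up to 4 called genes per related list. The genes of 6 functional sites were added from a table of roles, and 10 with a motif match for their sequence. Summed levels and list medians are descriptions without a test. Alternatives were other pseudocounts, filters, scalings, weights, a covariate, a replicate block and leaving out each library.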

Additional observations from a re-analysis of the deposited data

Results flagged for a closer look

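In groups of 5 libraries, 1 library stood far from the others by Dixon's criterion (a gap of over 0.71 of the range) in 9 of the 88 groups looked at (44 members, 2 groups each). Chance gives about 1 in 20. Among controls, Mrpl12 was at 11.1 FPKM in control 5 against at most 7.32 in the others. Control 4 was high for Mrpl18 (29.6 FPKM, next 12.9), Mrpl51 (4.62, next 2.95) and Mrps18a (8.47, next 7.66). Mrpl53 was at 12.2 FPKM in control 2, below 15.2 in the next. Among R6/2 libraries, Mrpl21 was low in R6/2 2 (9.79 FPKM, next 15.1) and Mrpl24 high in R6/2 3 (20.6, next 15.7). Mrpl27 was low in R6/2 5 (3.83 FPKM, next 10.2) and Mrpl44 low in R6/2 4 (2.96, next 5.00). The exons of Mrpl12, Mrpl18, Mrpl21, Mrpl24, Mrpl27, Mrpl44, Mrpl51 and Mrpl53 overlap those of another gene. None of the 9 genes was called.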

How the results depend on the processing

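The median log2 change of the members was above 0 in all 20 alternatives, from 0.073 (pseudocount of 5 FPKM) to 0.20 (rescaling to 1 protein-coding total). That rescaling gave 6 members whose groups did not overlap. The share of all genes without overlap is not given for the alternatives. With 1 library left out, the median was 0.075 to 0.126, the number called higher 0 to 3, the number called lower 0 to 1 and the number without overlap 3 to 6. The count of 0 called higher came without control 2 or without R6/2 4, with 5 higher at an unadjusted p under 0.05 in limma each time. Of all genes, 644 and 663 were called higher in these fits. Without control 4 only 1 member was called higher. Without R6/2 2 the calls of Mrpl20, Mrps22 and Mrpl39 were also lost, while Mrps12 and Mrpl33 passed (limma adjusted p = 0.0344 and 0.0127). Of all genes, 586 were called higher in that fit. The 1 call lower was Mrpl15 without R6/2 3. Without the filter on low values Mrpl39 did not pass (limma adjusted p = 0.0637).

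The labels do not state that replicate numbers pair the libraries, and the values showed no sign of it. Deviations of same-numbered libraries correlated at -0.053 to 0.049, and 1 of 5 controls matched its own number best. This check cannot exclude a pairing that left no trace in the values. With a replicate block, 0 members were called higher in limma, beside 370 higher and 975 lower of all genes at the adjusted threshold. At an unadjusted p under 0.05 in that fit, 10 members were higher, and the share over all genes is not given.

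Counts over all genes moved more, with 112 higher and 506 lower when cortical signal, which did not overlap between groups, was a covariate. After rescaling there were 1522 higher and 1136 lower, so that lower calls were the minority there. Of 967 values of single genes under an alternative 862 kept their direction and side of the threshold, and 54 log2 changes turned sign, all of uncalled genes, whose log2 change is given next. Under a pseudocount of 5 FPKM it was -0.013 for Mrpl18 and -0.00094 for Mrps30. Under the rescaling it was 0.056 for Mrpl16, 0.053 for Mrpl44 and 0.055 for Mrps18a. Under array weights it was -0.057 for Mrpl18, -0.011 for Mrpl38, -0.019 for Mrpl51 and 0.030 for Mrps18a. Under an adjustment for cortical signal it was -0.11 for Mrpl12, -0.31 for Mrpl18, -0.29 for Mrpl22, -0.035 for Mrpl27, -0.020 for Mrpl45, 0.11 for Mrpl47, 0.12 for Mrps18a, -0.48 for Mrps18c, -0.14 for Mrps24 and 0.39 for Mrps33. With 1 library left out it ran from -0.13 to 0.045 for Mrpl16, -0.027 to 0.16 for Mrpl17, -0.22 to 0.29 for Mrpl18, -0.11 to 0.27 for Mrpl38, -0.10 to 0.089 for Mrpl44, -0.26 to 0.020 for Mrpl47, -0.072 to 0.14 for Mrpl51, -0.16 to 0.059 for Mrps18a, -0.23 to 0.43 for Mrps18b, -0.18 to 0.20 for Mrps18c, -0.047 to 0.15 for Mrps2, -0.081 to 0.085 for Mrps24, -0.12 to 0.073 for Mrps30, -0.34 to 0.013 for Mrps33 and -0.35 to 0.052 for Mrps36. The causes were not tested. Depth per gene is unknown, which limits low members such as Mrps36 and Mrps18b most.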
